A study of Homo sapiens with 4 samples.

Results

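The genes described here are 7 small interferon-induced genes, IFITM1, IFITM2, IFITM3, IFI27, IFI6, ISG15 and BST2, out of 62443 genes in the expression table of a study of the peptide GLUP. They were found by symbol after the Ensembl gene IDs of the table had been matched to gene names, and all 7 were found and had a mean of at least 1 FPKM, the level set for testing, which 7588 genes reached. They were chosen by their high FPKM and their GLUP differences in these same libraries, so levels and differences are given as descriptions without a test. FPKM counts the fragments of a gene per kilobase of its length and by the number of mapped fragments, so levels can be set side by side between genes.

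The study sequenced RNA of HGC-27, an established line of human gastric cancer cells. There were 2 libraries of cells given 10 μg/ml GLUP and 2 of control cells, 4 in all. GLUP is a cyclized synthetic peptide built from the TEAD4-binding motif of VGLL4, made to hold molecules of the transcription factor TEAD4 together, and the comparison asks which genes change in its presence. The treatment lasted 48 h by the study's methods and 12 h by its results text, and the control was the buffer of the peptide by the methods and no treatment by the sample labels. The methods speak of biological replicates, while the labels name no separate cultures, so the spread between libraries of a group may be partly technical.

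Type I interferons bind a receptor on the cell surface, and the kinases JAK1 and TYK2 then activate transcription factors. These join IRF9 and bind a DNA element called ISRE in the promoters of interferon-stimulated genes. Many of the proteins made in response block viruses at a defined step. IFITM1, IFITM2 and IFITM3 are membrane proteins that hinder the fusion of viruses with the cell, IFI27 and IFI6 are small hydrophobic proteins of internal membranes, ISG15 is a ubiquitin-like protein that is attached to other proteins, and BST2 (tetherin) holds budding virus particles at the cell surface. Cancer cells can keep such genes active without infection.

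The label of small proteins was checked against the annotation (GENCODE version 44, lifted to GRCh37). The canonical transcripts encode 125 codons for IFITM1, 132 for IFITM2, 133 for IFITM3, 119 for IFI27, 130 for IFI6, 165 for ISG15 and 180 for BST2. Between 6.20% and 16.3% of the 6354 coding genes tested have a shorter coding sequence, so all 7 lie at the short end. IFITM2, IFITM1 and IFITM3 stand side by side on chromosome 11 of GRCh37, at 307816 to 309395, 314040 to 315272 and 319676 to 320860, each with 2 exons. IFI27 lies on chromosome 14 (94577161 to 94583032) and BST2 on chromosome 19 (17513748 to 17516439), each with 5 exons. IFI6 (27992575 to 27998703, 5 exons) and ISG15 (948877 to 949920, 2 exons) are both on chromosome 1.

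The promoters are shown because the ISRE is the feature that ties these genes to interferon. RefSeq promoter sequences (GRCh38.p14, 300 bases around the start site) were found for 6 of the 7 genes, and the missing entry is IFITM2. The ISRE core was searched as GAAA, any 2 bases and GAAA again, and on the other strand as TTTC, any 2 bases and TTTC. All 6 promoters held at least 1 match, against 3.57% of the 35116 promoters in the table. The stretches below run 5′ to 3′ along each gene's strand and end at or before the start site, capitals mark the ISRE core matches, and the positions are those at which the 300 promoter bases occur, without a mismatch and a single time on that chromosome, in GRCh37.
IFITM1, chr11:313975-314039, plus strand: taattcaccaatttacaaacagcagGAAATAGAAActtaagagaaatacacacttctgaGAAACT
IFITM3, chr11:320861-320937, minus strand: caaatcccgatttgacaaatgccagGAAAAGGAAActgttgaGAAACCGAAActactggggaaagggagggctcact
IFI27, chr14:94576949-94577021, plus strand: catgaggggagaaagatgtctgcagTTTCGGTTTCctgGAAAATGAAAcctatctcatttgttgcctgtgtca
IFI6, chr1:27998762-27998884, minus strand: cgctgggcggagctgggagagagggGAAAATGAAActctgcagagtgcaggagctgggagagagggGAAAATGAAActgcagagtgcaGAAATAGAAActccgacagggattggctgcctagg
ISG15, chr1:948739-948804, plus strand: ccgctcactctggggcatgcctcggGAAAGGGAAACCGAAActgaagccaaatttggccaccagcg
BST2, chr19:17516529-17516594, minus strand: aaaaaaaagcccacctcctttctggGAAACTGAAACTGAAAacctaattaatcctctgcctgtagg

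IFI6 carried 3 matches and the other 5 promoters 2 each. In ISG15 and BST2 both matches overlapped into a single run, in IFI27 they faced each other on opposite strands, and in IFITM1 the second match crossed the start site, so that its last bases are not printed. IFITM1 and IFITM3 held theirs close to the start site, with first bases at −40 and −6 and at −52 and −35, whereas those of IFI27, ISG15, BST2 and IFI6 began between −156 and −93 in the printed windows. IFI27 has a second promoter entry in the table that holds the same matches, with first bases at −187 and −174. The GAS core, searched as TTCNNNGAA, which reads the same on both strands and is an element of genes that respond to interferon gamma, was found in 3 of the 6 promoters (IFITM1, IFI27 and BST2) and in 7.66% of all promoters, and in each of these 3 a GAS match overlapped an ISRE core match. The core of the M-CAT element bound by TEAD factors, GGAATG or CATTCC on the other strand, occurred in none of the 6, and in 14.03% of all promoters. A match is a run of letters and not a measured binding site.

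The libraries themselves differed in ways that touch each result below. The read depth is unknown, since low values follow no whole-read steps, and levels are therefore given without a counting error. The control libraries lay further apart than the GLUP libraries: 19.1% of the 7588 genes differed more than 2-fold between the control libraries on the log2(FPKM + 1) scale and 1.63% between the GLUP libraries. The mesenchymal marker VIM stood at 293 to 387 FPKM in all 4 libraries, whereas the epithelial markers EPCAM (0 to 0.124 FPKM) and CDH1 (0 to 0.0799 FPKM) were nearly absent and 3 of 5 epithelial markers, the keratins, had a mean of at least 1 FPKM. The summed level of the 5 epithelial markers was 2.97 and 3.70 FPKM in control and 5.87 and 5.18 FPKM with GLUP, higher in both GLUP libraries. The rise came from the keratins, while the nearly absent EPCAM and CDH1 were lower in both GLUP libraries. The part of these markers in the results was not tested. None of 6 immune markers had a mean of at least 1 FPKM (summed level 0.845 and 0.528 FPKM in control, 0.928 and 1.52 FPKM with GLUP), and PTPRC was at 0 to 0.0394 FPKM. In a bulk RNA sample, fewer cells that express a gene and less RNA per cell cannot be told apart.

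The 7 genes took up a large part of the summed FPKM. FPKM is divided by length, and 6 of the 7 are in the fifth of genes with the shortest transcripts. The shares are therefore not shares of the sequenced fragments. Together they held 9.31% and 6.40% of all FPKM in the control libraries and 11.1% and 11.3% in the GLUP libraries, that is 7.85 ± 2.06% in control and 11.2 ± 0.165% with GLUP (SD, n = 2 each). Both GLUP shares lay above both control shares, and the gap between the control libraries was almost as wide as the difference of 3.37 percentage points between the group means. The 3 IFITM genes alone held 6.67% and 4.42% in control and 7.09% and 7.17% with GLUP. Mitochondrially encoded genes took 27.2% of the FPKM in each control library and 29.7% and 27.4% in the GLUP libraries. Without them, the share of the 7 genes was 12.8% and 8.78% in control against 15.8% and 15.6% with GLUP.

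By rank, 5 of the 7 genes were among the 20 highest of all 62443 genes in control replicate 1 and in both GLUP libraries, and 4 in control replicate 2, where IFITM2 ranked 48. IFITM1 ranked 3 and 4 in the control libraries and 4 and 3 in the GLUP libraries. With mitochondrially encoded genes set aside, it was the highest gene of control replicate 1 and of both GLUP libraries and ranked 2 in control replicate 2. IFITM3 followed at rank 4 and 9 in control and 6 and 4 with GLUP. IFI27 ranked 8 and 15 in control and 7 and 6 with GLUP, and ISG15 ranked 17 and 12 in control and 13 in both GLUP libraries. IFI6 and BST2 stood well below the other 5, with ranks between 92 and 1001.

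The order of the levels was IFITM1, IFITM3 and then IFI27 in 3 libraries. In control replicate 2 ISG15, with 9031 FPKM, stood above IFI27, with 8233 FPKM. The neighbours IFITM1 and IFITM3 did not overlap within either group. IFITM3 and IFI27 overlapped in the GLUP group and, narrowly, in the control group, where the lowest IFITM3 level of 13691 FPKM lay under the highest IFI27 level of 13869 FPKM. IFITM2 overlapped with ISG15 in both groups, and IFI6 with BST2 in the control group only, with BST2 above IFI6 in both GLUP libraries.

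Of the IFITM genes, IFITM3 had the clearest separation between the groups. IFITM1, which acts mainly at the cell surface, stood at 26918 and 23789.9 FPKM in control and at 26680 and 33285 FPKM with GLUP. The lower GLUP value lay under the higher control value, so its groups overlapped. IFITM3, which restricts viruses that enter through endosomes, stood at 21138 and 13691 FPKM in control and at 25096 and 26205 FPKM with GLUP, and its groups did not overlap. IFITM2, its close relative, was at 12581 and 3232 FPKM in control and at 14583 and 8579 FPKM with GLUP. IFITM2 varied more within each group, 3.89-fold in control and 1.70-fold with GLUP, than its group means differed, which was 1.46-fold. The log2 fold changes from limma's fit, GLUP minus control on the log2(FPKM + 1) scale, were 0.24 for IFITM1, 0.59 for IFITM3 and 0.81 for IFITM2, with standard errors of 0.20, 0.26 and 0.65.

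The levels of the 3 IFITM genes are uncertain relative to each other, because their transcripts share sequence and the counting of shared reads is not stated. Of the 50-base windows of the canonical transcripts, 55.1% in IFITM1, 12.02% in IFITM2 and 20.8% in IFITM3 also occur in a transcript of another gene. For IFITM1 most of these windows lie in ENSG00000288681, a readthrough gene that joins IFITM2 and IFITM1 in the annotation used here and has no row in the expression table. IFITM1 and IFITM3 share 15.8% of the IFITM1 windows, and IFITM1 and IFITM2 share 8.08%. The pseudogene IFITM3P2, which holds 3.20% of the IFITM3 windows, was at 9.43 and 12.9 FPKM in control and 15.1 and 20.1 FPKM with GLUP, far below the IFITM genes. IFI27, ISG15 and BST2 had no shared window, and IFI6 shared 21.9% of its windows with the overlapping LINC02574, which was listed at 0 in 3 libraries and at 0.398 FPKM in control replicate 2. The sum over IFITM1, IFITM2 and IFITM3, which also depends on how shared reads were assigned because the 3 genes differ in length, was 60637 and 40713 FPKM in control and 66358 and 68069 FPKM with GLUP.

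IFI27 was one of 2 genes of the 7 with a difference of more than 2-fold. It stood at 13869 and 8233 FPKM in control and at 22455 and 25125 FPKM with GLUP, and the lowest GLUP level was 1.62 times the highest control level. The log2 fold change was 1.15 with a standard error of 0.29, and it was under 2-fold with quantile normalization (0.60) and without control replicate 2 (0.78). IFI6, of the same protein family, did not share this pattern. It stood at 265 and 953 FPKM in control and at 557 and 529 FPKM with GLUP, so both GLUP libraries fell between the control libraries, and the log2 fold change was 0.11 with a standard error of 0.61. The other relatives of the family on the list, IFI27L1 and IFI27L2, were far lower, with 56.2 to 92.5 FPKM for IFI27L1 and 114 to 244 FPKM for IFI27L2 over the 4 libraries.

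ISG15 was the steadiest of the 7 genes within groups. It stood at 9221 and 9031 FPKM in control and at 12924 and 12616 FPKM with GLUP, which is 9126 ± 134 and 12770 ± 218 FPKM (SD, n = 2 each), a ratio of means of 1.40. The log2 fold change was 0.48 with a standard error of 0.20. That error draws on the variance of the other genes tested, and the residual SD of ISG15 alone was 0.023. BST2 was the least steady within the control group. It stood at 675 and 43.3 FPKM in control, a 15.6-fold gap, and at 1656 and 1373 FPKM with GLUP. The log2 fold change was 3.12 with a wide standard error of 1.19. The lowest GLUP level was 2.03 times the highest control level.

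**Figure D1:**
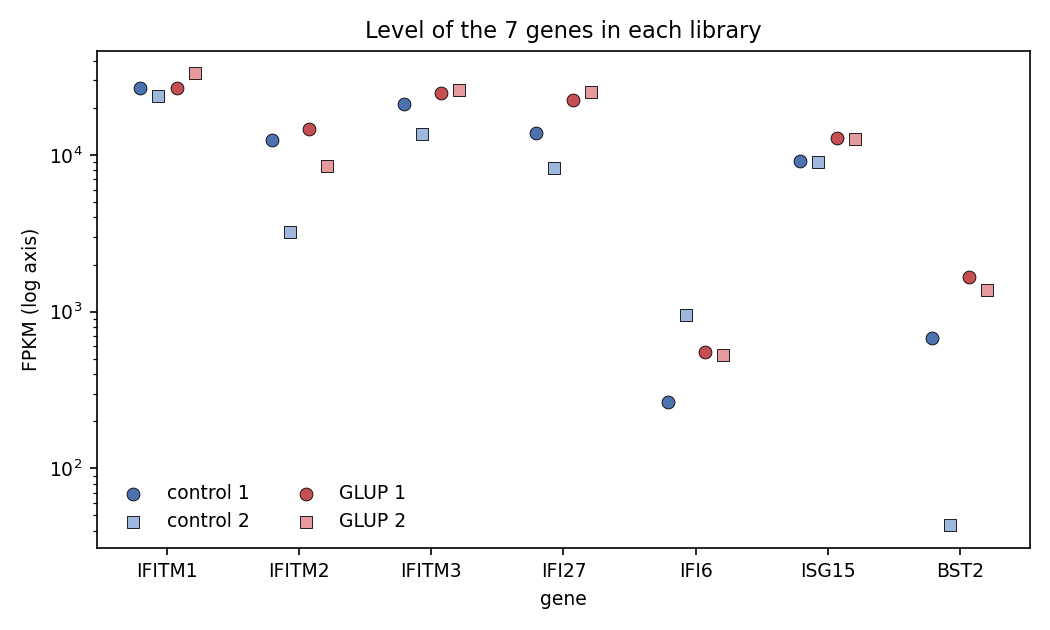
FPKM (log axis) of each of the 7 genes in the 4 libraries, with blue for control and red for GLUP, circles for replicate 1 and squares for replicate 2. For IFITM3, IFI27, ISG15 and BST2 both red points lie above both blue points, and the blue points of BST2, IFITM2 and IFI6 lie far apart.

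Counted together, all 7 genes had a log2 fold change above 0, as had 33.3% of the genes tested. In 4 of the 7 (IFITM3, IFI27, ISG15 and BST2) both GLUP libraries lay above both control libraries, as in 17.5% of the genes tested, and 2 (IFI27 and BST2) differed by more than 2-fold, as did 6.83% of the genes tested in that direction. None of the 7 had both GLUP libraries below both control libraries, as 49.7% of the genes tested had. Since the genes were chosen with these values known, the counts support nothing beyond themselves. Over all genes tested the median was −0.36. Relative to it, the differences ran from 0.46 for IFI6 to 3.48 for BST2. Between 71.4% (IFI6) and 99.9% (BST2) of the genes tested had a lower log2 fold change.

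The size of several of these differences depended on which control library was used. The log2 ratio of control replicate 2 over control replicate 1 was −3.96 for BST2, −1.96 for IFITM2, −0.75 for IFI27, −0.63 for IFITM3, −0.18 for IFITM1, −0.03 for ISG15 and 1.84 for IFI6. Without control replicate 2 the log2 fold change of BST2 was 1.16 and that of IFI6 1.03, while that of IFITM2 was −0.17. Without control replicate 1 they were 5.09, −0.81 and 1.79. IFI27 moved less, between 0.78 and 1.53 over the libraries left out in turn, and ISG15 stayed between 0.47 and 0.50. The signs for IFI6 and IFITM2 thus depend on which control library is used.

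Ratios between the 7 genes within a library do not depend on the scaling of libraries. The ratio of IFITM1 to IFI27 was 1.94 and 2.89 in control and 1.19 and 1.33 with GLUP, and that of IFITM3 to IFI27 was 1.52 and 1.66 in control and 1.12 and 1.04 with GLUP. The control and GLUP values did not overlap for either ratio, so that IFI27 was higher relative to both IFITM genes with GLUP. The ratio of IFITM1 to BST2 was 39.9 and 549 in control and 16.1 and 24.2 with GLUP. All 6 ratios with BST2 and 4 of the 6 with IFI27 had no overlap between the groups. In all 10 of the 21 pairs had none, a count that includes these. The share over pairs of other genes was not counted, so these counts show nothing particular to the 7 genes. The ratio of IFITM1 to ISG15 stayed close, at 2.92 and 2.63 in control and 2.06 and 2.64 with GLUP, and its groups overlapped.

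The GC content of the transcripts moved with the differences. Across the genes tested, which are not independent replicates, the log2 fold change and the GC content of the longest transcript correlated with a Spearman rho of 0.58 (7570 genes, all measured in the same 4 libraries). The 7 genes are GC-rich, from 50.4% for IFI27 to 63.4% for ISG15, and 6 of them, all but IFI27, are in the fifth of genes highest in GC content. There the median log2 fold change was 0.44, 22.2% of the genes were more than 2-fold higher, and control replicate 2 lay below control replicate 1 by a median of 0.64. With the GC trend of each library removed, the log2 fold change was −0.03 for IFITM1, −0.08 for ISG15, −0.20 for IFI6, 0.15 for IFITM3 and 0.47 for IFITM2. Those of IFI27 and BST2 remained at 1.28 and 2.76. For IFI27 the longest transcript has 2430 bases and the canonical one 716. The GC value used for IFI27 may therefore not be that of the RNA present, and its corrected value is uncertain. The differences of IFITM1, ISG15 and IFI6 therefore changed sign with this correction, and those of IFI27 and BST2 stayed over 2-fold.

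**Figure D2:**
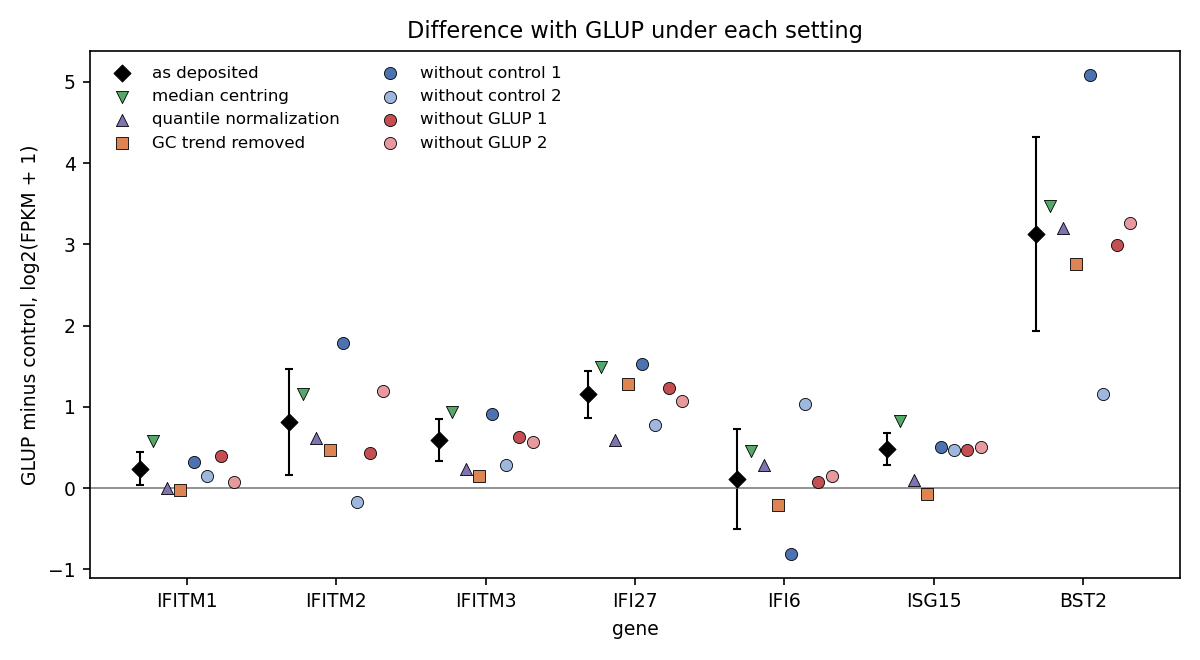
Difference between GLUP and control on the log2(FPKM + 1) scale for each of the 7 genes, as deposited (black diamonds with the standard error from limma), under median centring, quantile normalization and removal of the GC trend, and with each library left out. IFI27, IFITM3 and BST2 stay above 0 under every setting shown, while IFI6, IFITM2, IFITM1 and ISG15 each fall below 0 under at least 1 of them.

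The rest of the interferon pathway was measured in the same libraries, over 94 genes in 7 lists by role, of which 47 had a mean of at least 1 FPKM. By limma and the Benjamini-Hochberg method, 0 of them passed an adjusted p of 0.05 together with a 2-fold change (lowest adjusted p = 0.10). Of all genes tested 0.0264% met that rule. With the p left unadjusted and the same limits, 2 of the 47 were higher and 7 were lower, that is 4.26% and 14.9%, against 4.67% and 14.5% of all genes tested. Both shares were near those of all genes. Centring each library on its median turned the split of these calls over all genes from 354 higher and 1103 lower to 796 higher and 428 lower, and that of the 47 genes to 6 higher and 3 lower.

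Interferons were sparse. Of 21 interferon genes 2 had a mean of at least 1 FPKM. IFNB1, the type I interferon that most cell types can make, was at 6.12 and 6.37 FPKM in control and at 3.21 and 2.99 FPKM with GLUP (log2 fold change −0.82, adjusted p = 0.121 from limma). IFNL1, a type III interferon, was at 2.45 and 1.61 FPKM in control and at 1.92 and 1.89 FPKM with GLUP. All 13 interferon alpha genes were listed at 0 in every library. Of the receptors and kinases 5 of 9 genes were tested and none met the unadjusted rule. IFNAR1, a chain of the type I receptor, was at 3.16 and 3.49 FPKM in control and 1.76 and 1.74 FPKM with GLUP, while IFNGR1 and IL10RB, chains of the type II and type III receptors, ranged from 4.60 to 8.57 FPKM and from 2.66 to 5.69 FPKM over the 4 libraries.

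Of the transcription factors 4 of 8 were tested, and IRF9 and STAT2 had opposite signs. IRF9, a DNA-binding subunit of the complex that recognises the ISRE, was at 7.30 and 0.972 FPKM in control and at 13.9 and 15.7 FPKM with GLUP (log2 fold change 1.97 with a standard error of 0.67; limma's adjusted p = 0.125). STAT2, its partner in that complex, stood at 13.5 and 53.6 FPKM in control and at 12.45 and 10.8 FPKM with GLUP. The groups did not overlap for either gene, with GLUP lower for STAT2 and higher for IRF9, and IRF9 but not STAT2 met the unadjusted rule. Of the sensors and adaptors 4 of 10 were tested and none met it. RIGI, a sensor of viral RNA, was at 3.80 and 4.97 FPKM in control and at 5.10 and 3.30 FPKM with GLUP. DHX58 and IKBKE ranged from 1.22 to 3.09 FPKM and from 2.27 to 4.70 FPKM.

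The machinery that attaches ISG15 to proteins was uneven in level. UBA7, the activating enzyme, had a mean under 1 FPKM, and the ligase HERC5 was at 0.0225 FPKM in control replicate 1 and listed at 0 elsewhere. UBE2L6, the conjugating enzyme, was by contrast at 313 and 78.9 FPKM in control and at 407 and 362 FPKM with GLUP (log2 fold change 1.28, adjusted p = 0.223 from limma). HERC6, a relative of HERC5, was at 7.86 and 6.90 FPKM in control and at 3.17 and 2.84 FPKM with GLUP and was the only gene of this list to meet the unadjusted rule, on the lower side (log2 fold change −1.07). USP18, the protease that takes ISG15 off again, was at 21.9 and 6.41 FPKM in control and at 18.0 and 19.2 FPKM with GLUP. ISG15 itself thus stood at least an order of magnitude above every gene of its own machinery.

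Among 36 other interferon-induced genes, 26 were tested, 8 with a log2 fold change above 0 and 18 below. Over all genes tested 33.3% lay above 0. The median was −0.36 for these 26 genes and −0.36 for all genes tested. IFIT3, of the IFIT family of RNA-binding antiviral proteins, was at 130 and 143 FPKM in control and at 49.4 and 53.6 FPKM with GLUP (log2 fold change −1.39, adjusted p = 0.10 from limma). IFIT2, IFIT5, IFI44, IFI44L and DTX3L also met the unadjusted rule on the lower side, with log2 fold changes of −1.53, −1.03, −1.18, −1.98 and −1.11. IFIT1, of the same family, was at 62.6 and 78.3 FPKM in control and at 43.0 and 41.6 FPKM with GLUP. On the higher side LGALS3BP, a secreted glycoprotein, was at 12.8 and 3.34 FPKM in control and at 53.3 and 37.7 FPKM with GLUP (log2 fold change 2.57, adjusted p = 0.10 from limma). IFI35, the gene of this list with the highest mean level, was at 171 and 21.96 FPKM in control and at 208 and 173 FPKM with GLUP and did not meet the rule.

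The genes of the pathway lists lay on both sides of 0, as did the genes tested as a whole. Of the 47 tested, 17 had a log2 fold change above 0, against 33.3% of all genes tested. The 7 pathway genes that met the unadjusted rule on the lower side have GC contents from 37.5% to 46.3%, below each of the 7 small genes, while those on the higher side, IRF9 and LGALS3BP, have 53.9% and 61.2%. Other genes of the lists had the opposite combination, such as the GC-rich IKBKE (58.6%, log2 fold change −0.52) and the GC-poor USP18 (43.1%, log2 fold change 0.59). With the GC trend removed none of the 7 met the rule, but all 7 kept a log2 fold change below 0, from −0.23 for IFIT5 to −1.20 for IFI44L, which stayed over 2-fold. IRF9 and LGALS3BP still met the rule, with log2 fold changes of 1.83 and 2.06. When all genes above 0 FPKM were fitted, LGALS3BP met the rule and IRF9 did not. The control level of IRF9 was 7.30 FPKM in replicate 1 and 0.972 FPKM in replicate 2. The part of GC content in these differences was not tested beyond this correction.

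The 5 genes whose pattern over the 4 libraries was most like the mean of the 7 are named as a description. That mean does not stand for each of the 7 genes. The log2 ratio of control replicate 2 over control replicate 1 was −3.96 for BST2 but 1.84 for IFI6. Likeness was measured as the root mean square difference between log2(FPKM + 1) profiles centred on their means, over 4 libraries. MRPL54 was nearest, with a difference of 0.0110, followed by ILVBL, NOB1, RTL8A and SMARCD2 with 0.0418 to 0.0454. MRPL54, a protein of the mitochondrial ribosome, was at 36.9 and 20.6 FPKM in control and at 55.1 and 51.0 FPKM with GLUP.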

How the data were processed

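The authors sequenced RNA from 2 GLUP and 2 control samples of HGC-27 and deposited 1 FPKM value per gene and library. The submitters' processing notes name HISAT2, Cufflinks and RSEM, without roles or versions, and the build GRCh38.p10, whereas the row IDs have the form GENCODE uses for annotation lifted to GRCh37. IDs were matched without their version (99.5% of 62443 genes, after 49 second copies of pseudoautosomal genes were summed). The 7588 genes whose mean reached 1 FPKM were tested on log2(FPKM + 1) with limma 3.58.1 in R 4.3.3, using its mean-variance trend. Its standard errors are moderated, that is, drawn in part from the variance of the other genes tested. p-values were adjusted over the genes tested by the Benjamini-Hochberg method. Ranks, shares and ratios came from FPKM as deposited (Python 3.11.15). The script was tested on simulated data. With 2 libraries against 2, a permutation test cannot pass 0.05, so none was made. As an alternative, a lowess curve along GC content (span 0.3) was subtracted from each library. The 7 genes and the lists were chosen with earlier results of these data known. Named genes were the 7, the 3 highest and up to 5 called genes of each list and the 5 nearest profiles. UBA7, HERC5, IFI44L, DTX3L and the pseudogene were named after their values were seen. A gene of the transcription factor list is not reported here.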

Additional observations from a re-analysis of the deposited data

How the results depend on the processing

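With 4 libraries the limits are few replicates and unknown depth. In this section "as reported" means as given in the sections above, and not by the study. The ratio of the summed share of the 7 genes, GLUP over control, was 1.43. It was recomputed with other totals, with each library left out and under quantile normalization. There it stayed above 1, between 1.17 under quantile normalization and 1.75 without control replicate 1. The ratio was not recomputed with the GC trend removed or under median centring. Among the 7, the number above 0 was 4 in place of 7 with the GC trend removed, with or without the replicate block, and 6 to 7 with 1 library left out. The number over 2-fold, 2 as reported, was 1 under quantile normalization, 2 to 3 with 1 library left out and 4 at a fold change of 1.5. IFI27 was the gene lost under quantile normalization (0.60), and without control replicate 2 the genes over 2-fold were BST2 (1.16) and IFI6 (1.03), with IFI27 at 0.78. Signs of the log2 fold change turned for IFITM1 (−0.028), ISG15 (−0.077) and IFI6 (−0.20) with the GC trend removed, with or without the block, for IFI6 (−0.81) without control replicate 1 and for IFITM2 (−0.17) without control replicate 2. With 1 library left out the log2 fold change ran from −0.17 to 1.79 for IFITM2 and from −0.81 to 1.03 for IFI6.

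Of the 47 pathway genes, 2 were called higher and 7 lower in limma with unadjusted p-values and a 2-fold limit. The higher calls were 1 with all genes above 0, 6 with median centring, 5 with quantile normalization and 1 to 10 with 1 library left out. The lower calls were 3 with median centring and with quantile normalization, 0 with the GC trend removed, 11 at a fold change of 1.5 and 0 to 8 with 1 library left out. Adjusted calls, 0 as reported, ran from 0 to 18 with 1 library left out. In those fits the lone library of a group is assumed to vary like the other group, and without control replicate 1 the spread comes from the GLUP libraries alone.

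Over all genes, calls were 354 higher and 1103 lower. The higher calls were 186 at a mean of at least 5 FPKM, 796 with median centring, 673 with quantile normalization and 150 to 980 with 1 library left out. The lower calls were 1670 with a pseudocount of 0.1, 704 at a mean of at least 5 FPKM, 428 with median centring, 486 with quantile normalization, 345 with the GC trend removed, 1919 at a fold change of 1.5 and 437 to 1749 with 1 library left out. Adjusted calls, 2 as reported, were 1 with a pseudocount of 0.1, median centring or quantile normalization, 0 with all genes above 0, at a mean of at least 5 FPKM, with the GC trend removed or without the mean-variance trend, and 4 to 2710 with 1 library left out. Apart from those shown by the alternative's own construction, the cause was not tested.

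The groups share replicate numbers, but the deviations of same-numbered libraries correlated at 0.13 over only 2 pairs, so the numbers were not taken as a pairing. With the replicate block, 4 pathway genes were called higher and 7 lower, and 2 genes in all had an adjusted call. With the replicate block and the GC trend removed, 5 pathway genes were called higher and 1 lower, 406 of all genes were called lower, and 16 had an adjusted call.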

Other observations

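The promoter feature shared by the small genes was also common among the other interferon-induced genes, whichever side they lay on. Of 29 such genes with a RefSeq promoter, 19 held the ISRE core in the promoter entry. Among those tested it was found in 3 of 6 genes with a log2 fold change above 0 and in 12 of 15 below 0. The GAS core was found in 2 of 6 and 2 of 15 and the M-CAT core in 1 of 6 and 5 of 15. Over all genes with a promoter entry, 4.38% held the ISRE core, 9.38% the GAS core and 16.7% the M-CAT core. The counts over the interferon-induced genes were made after their values were known and no test was made.

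Markers of fibroblasts were expressed in all 4 libraries, with a summed level over 5 genes of 125 and 120 FPKM in control and 119 and 123 FPKM with GLUP, most of it from LUM at 59.0 to 76.7 FPKM and DCN at 20.1 to 41.3 FPKM. Their sum differed less between the groups than between the control libraries, but single markers moved in opposite directions. DCN was at 26.5 and 41.3 FPKM in control and at 20.1 and 22.3 FPKM with GLUP. COL1A1 was at 2.97 and 3.64 FPKM in control and at 6.90 and 4.42 FPKM with GLUP. For LUM, COL3A1 and COL1A2 the groups overlapped.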
